A study of Mus musculus with 8 samples.

Results

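The 10 genes described here, H2-K1, H2-D1, B2m, Tap1, Tap2, Tapbp, Psmb8, Psmb9, Psmb10 and Nlrc5, encode the core of antigen presentation by class I molecules of the major histocompatibility complex (MHC) together with the immunoproteasome. They were taken by symbol from the 49492 rows of the deposited expression table, and all 10 were found and passed the filter on low values, which left 16232 genes. The 10 genes were picked with results of all 4 groups of these samples known. Their own values are therefore a description, with differences and standard errors (SE) and no p-value. Where a member is said to be called, the word records only that it passed the threshold of the fit over all genes, and it is no evidence about the 10. Genes of the same pathway outside the 10 were tested.

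Class I molecules show fragments of a cell's own proteins to CD8+ T cells. Proteasomes cut proteins into peptides, the transporter built from Tap1 and Tap2 carries the peptides into the endoplasmic reticulum (ER), and tapasin (Tapbp) holds the class I heavy chain and B2m (beta-2 microglobulin) beside the transporter until a peptide is bound. In cells exposed to interferon the catalytic subunits Psmb8, Psmb9 and Psmb10 replace Psmb5, Psmb6 and Psmb7 to form the immunoproteasome, and Nlrc5 acts as a transactivator of class I genes. Fibroblasts carry class I at low to moderate levels and raise it when interferon is sensed.

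RNA-seq was performed on 8 samples of mouse embryonic fibroblasts (MEFs), in 4 groups of 2. The cells were Pontin f/f MEFs in which endogenous Pontin, an ATPase of chromatin remodelling complexes encoded by Ruvbl1, was removed by Cre virus, and which stably expressed Flag-tagged Pontin from an added copy. This copy was either Pontin WT or Pontin RA, a mutant whose methylated arginines were replaced by alanine. Both lines were grown in normal medium or in glucose-free medium with dialyzed serum (starved), and the length of starvation before RNA-seq is not given in the sources used here. All 4 groups shared the Cre deletion and an added copy. Each genotype was a single stable line, so a difference between lines cannot be told apart from a difference between the Pontin forms. No label says whether replicates came from separate cultures, so errors measure the spread between these samples, which may be technical. In bulk RNA, fewer cells that express a gene and less RNA per cell cannot be told apart either.

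Between 43205841 and 56363034 reads were recovered per sample. Values are read counts relative to a library size scaled by the authors, called scaled CPM below, and 3 reads correspond to between 0.0548 and 0.069 scaled CPM. Ruvbl1, the targeted gene, stood at 28.4 and 27.6 (normal WT), 27.9 and 28.4 (starved WT), 36.8 and 32.0 (normal RA) and 45.0 and 42.9 (starved RA). These reads do not separate the added copy from the endogenous gene and do not check the labels. Of 12 fibroblast markers 11 passed the filter, and their summed value ran from 10235 to 10549 in normal medium over both genotypes, from 5626 to 5726 in starved WT and from 7245 to 7261 in starved RA. Among 12 leukocyte markers 9 stayed under 1 in every sample, Cd3e and Nkg7 were at 0 throughout, and the summed value was 13.7 to 14.6 (normal WT), 25.9 to 26.1 (starved WT), 16.9 to 18.1 (normal RA) and 21.7 to 22.1 (starved RA). For 5 endothelial markers the sums were 2.62 to 3.44, 8.92 to 9.43, 2.05 to 3.43 and 6.03 to 6.38 in the same order. Both sums were thus higher in starved samples, most in WT. The part of cell composition in the results below was not tested.

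The promoters of the members are shown because the genes separate below into a group that rose in starved WT cells and a group that fell. RefSeq windows of 250 bases before to 50 bases after the gene start (GRCm38.p6) matched 8 of the 10 members, all but Tap2 and Nlrc5. The files were made on mm9 and hold no coordinates, so positions refer to GRCm38.p6 only. The first 3 stretches lie directly before the starts of H2-K1 (chr17:34000348-34000467, minus strand), H2-D1 (chr17:35262974-35263093, plus strand) and B2m (chr2:122147537-122147686, plus strand). Capitals mark TGACG, part of the cyclic AMP response element, and CCAAT or its reverse complement ATTGG, the Y box. In B2m they also mark a match to GAAANNGAA, a form of the core of an interferon-stimulated response element.
H2-K1: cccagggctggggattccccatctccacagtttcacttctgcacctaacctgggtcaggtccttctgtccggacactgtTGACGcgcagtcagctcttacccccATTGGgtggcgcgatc
H2-D1: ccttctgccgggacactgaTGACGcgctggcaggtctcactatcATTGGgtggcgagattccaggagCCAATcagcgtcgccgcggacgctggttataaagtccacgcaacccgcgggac
B2m: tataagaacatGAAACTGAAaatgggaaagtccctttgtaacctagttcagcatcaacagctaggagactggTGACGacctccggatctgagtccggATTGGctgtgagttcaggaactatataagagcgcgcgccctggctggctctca

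In H2-K1, H2-D1 and B2m alike the start of ATTGG lay 25 bases after the start of TGACG. This distance was noticed when the windows were read. It occurred in 26 of 27025 RefSeq promoter windows, 1 window a gene (0.0962%), and in 27 genes when every window of a gene was searched. Both letter strings at any distance occurred in 8.05% of the 27025 windows. The counts of the distance include the 3 members it was read from, so nothing is read from its rarity. Of the 17 other class I and class I-like genes with a window only H2-M3, which encodes a heavy chain that presents formylated peptides, had the same distance, and none of 9 class II presentation genes had it. Searched on both strands, TGACG was found in 5 of the 8 members' windows and in 21.0% of all windows, and CCAAT in 6 of 8 and in 37.9%. GAAANNGAA was found in B2m alone among the 8 and in 8.57% of all windows. Other forms of the interferon-stimulated response element were not searched. A window without this match, that of H2-K1 included, may therefore still hold such an element. A match is a description of letters and not evidence of a bound site.

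Tap1 and Psmb9 are transcribed away from each other from starts 225 bases apart, and the whole interval is shown on the Tap1 strand (chr17:34187331-34187555). Capitals again mark CCAAT and TGACG. The second stretch lies before the start of Psmb8 (chr17:34198075-34198194, plus strand), and its capitals mark TTCNNNGAA, the letters of a gamma-activated site bound by STAT factors, found in 8.47% of all windows and in none of the other 7 windows of members.
Tap1 and Psmb9: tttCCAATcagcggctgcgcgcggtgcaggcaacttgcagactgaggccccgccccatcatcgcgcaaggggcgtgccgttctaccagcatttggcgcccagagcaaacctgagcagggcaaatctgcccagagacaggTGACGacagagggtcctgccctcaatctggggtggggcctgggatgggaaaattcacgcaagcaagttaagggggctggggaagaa
Psmb8: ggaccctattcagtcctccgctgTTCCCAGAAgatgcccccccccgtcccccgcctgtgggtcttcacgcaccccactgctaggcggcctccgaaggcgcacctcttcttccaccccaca

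GTAAACA, a core of FOXO sites, was searched because the study concerned FOXO3a. It was in none of the 8 members' windows and in 3.55% of all windows.

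All 10 members stood higher in RA than in WT in both media, and the gap was wider under starvation for each of them. For each member both RA samples lay above both WT samples in each medium. Of all genes tested 28.5% did so in normal medium, 39.7% under starvation and 14.2% in both, and since the members were picked on these samples nothing is read from their count. As ratios of means, RA held from 1.47 (B2m) to 3.09 (Psmb9) times as much as WT in normal medium. In the fit over all genes (limma, Benjamini-Hochberg (BH) adjusted p under 0.05) 10 of 10 members were called higher in RA in normal medium, where 6.68% of all genes were called higher and 2.95% lower. Under starvation 10 of 10 were called higher, where 30.8% of all genes were called higher and 32.1% lower. Nothing is read from these counts either. The normal-medium background depends on scaling: 69.4% of the called genes were higher in RA as deposited and 40.4% with total-read scaling, while the 10 members were called higher under both. For Tap2 in normal medium the call was lost in 4 of 20 alternatives. It was lost without replicate 2 of RA or of WT in that medium (0.50 each, against 0.59). It was also lost without the filter and without the trend of the fit. In the order of group means, 7 members ran from starved WT through normal WT and normal RA to starved RA, and the other 3, H2-K1, H2-D1 and B2m, had their lowest value in normal WT.

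**Figure D1:**
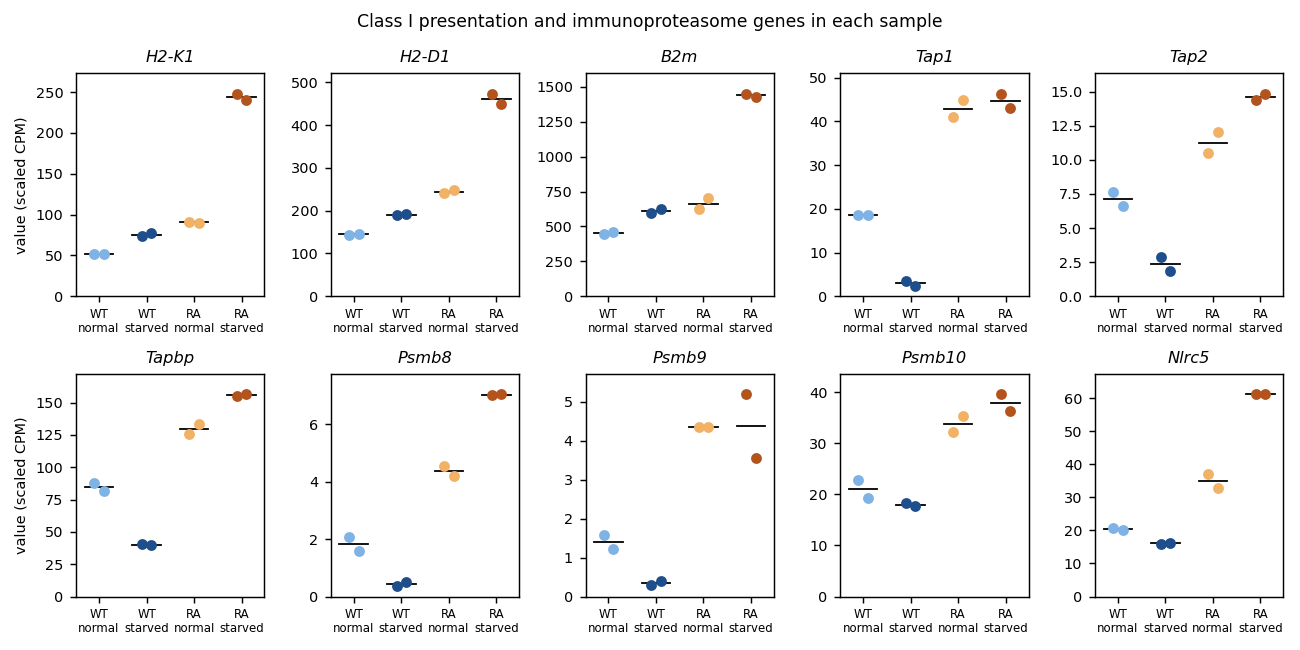
Scaled CPM (y axis, from 0) of each of the 10 members in the 2 samples of each group (x axis); points are samples and bars are group means. H2-K1, H2-D1 and B2m were lowest in normal WT, whereas the other 7 were lowest in starved WT; starved RA had the highest mean for all 10.

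Per kilobase of exon, B2m was the most abundant of the 10 RNAs in every group, with means of 525 to 1676 scaled CPM, followed by H2-D1 with 56.2 to 179. Exon length here and below is the union over all annotated transcripts of a gene, from 860 bases for B2m to 8493 for Nlrc5. Levels per kilobase compared between genes depend on it. H2-K1, a classical heavy chain, measured 52.2 and 52.3 scaled CPM (normal WT), 73.5 and 77.0 (starved WT), 90.8 and 90.1 (normal RA) and 248 and 240 (starved RA). Neighbouring groups in this order did not overlap. Here and below such a statement describes the samples of that gene only. The share of all genes without overlap among the 4 groups is not given, so nothing is read from it. H2-D1, the other classical heavy chain listed, measured 144 and 146 (normal WT), 190 and 192 (starved WT), 242 and 248 (normal RA) and 474 and 449 (starved RA). B2m, the light chain that every class I heavy chain needs, measured 445 and 458 (normal WT), 597 and 624 (starved WT), 623 and 701 (normal RA) and 1453 and 1430 (starved RA). Starved WT and normal RA overlapped for B2m.

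Starvation thus raised all 3 in WT. On the scale of log2(value + 1), the difference between starved and normal WT was 0.52 (SE 0.041) for H2-K1, 0.40 (SE 0.038) for H2-D1 and 0.44 (SE 0.049) for B2m. In RA the same differences were 1.42, 0.91 and 1.12. Starved RA held 3.25 times as much H2-K1 as starved WT, 2.42 times as much H2-D1 and 2.36 times as much B2m. Per kilobase of exon, H2-K1 amounted to 31.4% to 35.2% of H2-D1 in the 6 samples outside starved RA and to 46.0% and 46.9% (starved RA).

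The transporter and tapasin went the other way in WT. Tap1, an ATP-binding chain of the peptide transporter, measured 18.5 and 18.6 scaled CPM (normal WT), 3.44 and 2.41 (starved WT), 40.9 and 44.8 (normal RA) and 46.4 and 43.0 (starved RA). The starved WT samples were the only ones under 18, and normal and starved RA overlapped. Tap2, its partner chain, measured 7.65 and 6.65 (normal WT), 2.85 and 1.83 (starved WT), 10.5 and 12.1 (normal RA) and 14.4 and 14.9 (starved RA). Tapbp measured 87.5 and 81.8 (normal WT), 40.3 and 39.9 (starved WT), 126 and 133 (normal RA) and 155 and 157 (starved RA). No groups overlapped for Tap2 or Tapbp.

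The fall in starved WT was 6.35-fold for the mean of Tap1, 3.06-fold for Tap2 and 2.11-fold for Tapbp. As log2(value + 1) the values fell by 2.33 (SE 0.099), 1.30 (SE 0.131) and 1.06 (SE 0.045). In RA the differences were 0.06 (SE 0.099) for Tap1, which was not called, 0.35 (SE 0.131) for Tap2 and 0.27 (SE 0.045) for Tapbp. The call of Tap2 in RA was lost in 7 of 20 alternatives, among them without replicate 1 of RA in normal medium, where the difference was 0.26, and without either starved RA sample (0.33 and 0.37). Starved RA held 15.3 times as much Tap1 as starved WT, 6.25 times as much Tap2 and 3.89 times as much Tapbp. Per kilobase, Tap1 equalled 167% and 193% of Tap2 (normal WT), 83.3% and 91.1% (starved WT) and 200% to 270% in the 4 RA samples. Set against B2m in the same way, Tap1 equalled 0.639% and 0.653% (normal WT) and 0.0607% and 0.0904% once starved, while in RA it equalled 1.0% and 1.03% before and 0.472% and 0.502% after starvation.

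Of the exon bases of Tapbp, 24.9% are shared with Gm19412 on the opposite strand in GENCODE M21. For Tap2 the share with Gm15821 is 14.1% and for Psmb8 the share with Gm20496 is 14.7%, both on the opposite strand. How strand was handled in counting is not stated, so reads over these bases cannot be assigned. Tap1 and Psmb9 share 212 exon bases on opposite strands. Among 50-base words, H2-K1 shared 9.63% and H2-D1 12.8% with transcripts of other genes, most often H2-Q10 and H2-Q1, while B2m and Psmb10 shared none.

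Psmb8 and Psmb9 were the scarcest members per kilobase of exon, with group means of 0.131 to 2.08 and 0.0950 to 1.20 scaled CPM, against 10.5 to 22.3 for Psmb10. Psmb8 (LMP7), which replaces Psmb5, measured 2.09 and 1.57 scaled CPM (normal WT), 0.377 and 0.512 (starved WT), 4.55 and 4.19 (normal RA) and 7.01 and 7.06 (starved RA). The starved WT values rest on 18 and 28 reads. Here and for Psmb9 both mates of a pair appear to be counted as reads, so the fragments behind them may be fewer. Psmb9 (LMP2), which replaces Psmb6, measured 1.59 and 1.23 (normal WT), 0.293 and 0.402 (starved WT), 4.34 and 4.36 (normal RA) and 5.21 and 3.55 (starved RA), with 14 and 22 reads in starved WT. Psmb10 (MECL-1), which replaces Psmb7, measured 22.8 and 19.3 (normal WT), 18.3 and 17.6 (starved WT), 32.1 and 35.4 (normal RA) and 39.7 and 36.2 (starved RA). For Psmb9 the samples of normal and starved RA overlapped, and for Psmb8 and Psmb10 no groups did.

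Between starved and normal WT, log2(value + 1) fell by 0.97 (SE 0.129) for Psmb8, 0.83 (SE 0.150) for Psmb9 and 0.21 (SE 0.078) for Psmb10. The pseudocount of 1 compresses the first 2, for which edgeR on the recovered reads gave log2 differences of -2.06 and -2.03. The call of Psmb10 was lost in 5 of 20 alternatives. Without replicate 1 of WT in normal medium the difference was -0.10 and no longer called, and without replicate 2 of that group it was -0.33. It was also not called without replicate 2 of starved WT (-0.19), with quantile normalization (-0.11), without the trend of the fit and without the filter. In RA the differences were 0.58 (SE 0.129) for Psmb8, -0.01 (SE 0.150) for Psmb9 and 0.16 (SE 0.078) for Psmb10, of which the last 2 were not called. Psmb10 became called in RA in 4 of 20 alternatives. Starved RA held 15.8 times as much Psmb8, 12.6 times as much Psmb9 and 2.11 times as much Psmb10 as starved WT.

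Of the constitutive partners, Psmb5 and Psmb6 did not follow this pattern, and Psmb7 did so only in part. Psmb5 measured 111 and 113 scaled CPM (normal WT), 94.6 and 96.3 (starved WT), 120 and 115 (normal RA) and 94.4 and 95.0 (starved RA). Its difference between starved RA and starved WT was -0.01 (SE 0.040, adjusted p = 0.827 by limma), and that of Psmb6 was also -0.01 (SE 0.043, adjusted p = 0.779 by limma). Psmb7 was 0.27 higher in starved RA (SE 0.044, adjusted p = 4.68e-05 by limma). Its response to starvation in RA less that in WT was 0.20 (SE 0.063, adjusted p = 0.0122 by limma). The union of exons was 3381 bases for Psmb8, 3660 for Psmb9 and 1705 for Psmb10, against 899 for Psmb5, 1872 for Psmb6 and 3421 for Psmb7. The size of each ratio below depends on these lengths. As levels per kilobase of exon, Psmb8 equalled 0.370% and 0.502% of Psmb5 (normal WT), 0.106% and 0.141% (starved WT), 0.964% and 1.01% (normal RA) and 1.97% and 1.98% (starved RA). Psmb9 equalled 0.600% and 0.749% of Psmb6 (normal WT), 0.158% and 0.203% (starved WT) and 1.86% to 2.71% in the 4 RA samples. Psmb10 equalled 18.7% and 21.8% of Psmb7 (normal WT), 26.7% and 28.8% (starved WT), 30.9% and 31.1% (normal RA) and 47.1% and 49.8% (starved RA). The ratio of Psmb10 to Psmb7 was thus higher in starved than in normal WT, unlike the other 2 ratios, with Psmb7 falling by 0.68 (SE 0.044, adjusted p = 2.74e-10 by limma) on the log2(value + 1) scale. The constitutive subunit was the more abundant RNA of each pair in all 8 samples.

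**Figure D2:**
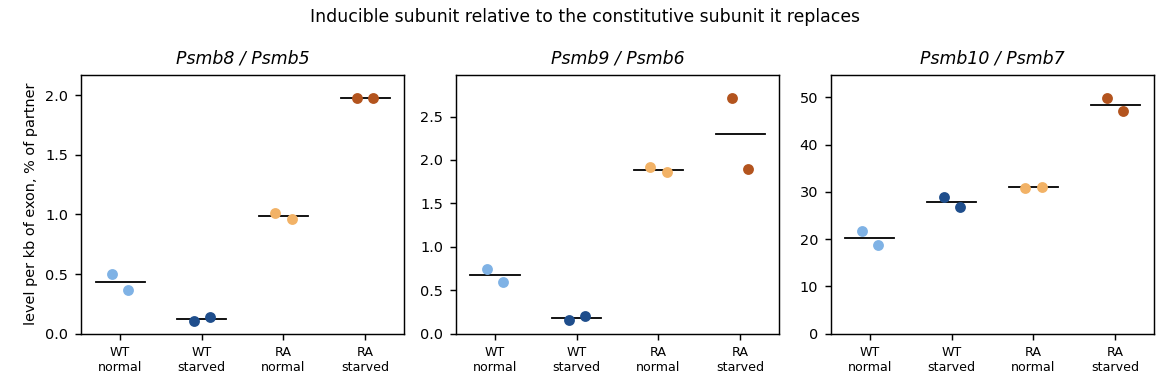
Level per kilobase of exon of each inducible subunit as a percentage of the constitutive subunit it replaces (y axis, from 0, separate scale per panel) in each sample (points) with group means (bars). Psmb8 to Psmb5 ran from 0.106% in starved WT to 1.98% in starved RA, while Psmb10 to Psmb7 was lowest in normal WT at 18.7%.

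Nlrc5, the class I transactivator, measured 20.7 and 20.1 scaled CPM (normal WT), 16.0 and 16.2 (starved WT), 37.0 and 32.8 (normal RA) and 61.2 and 61.3 (starved RA). No groups overlapped. Starvation lowered log2(value + 1) by 0.32 (SE 0.064) in WT and raised it by 0.80 (SE 0.064) in RA, and starved RA held 3.81 times as much as starved WT. Nlrc5 thus fell in starved WT, where H2-K1, H2-D1 and B2m rose.

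For starvation against normal medium in WT, 3 of 10 members were called higher and 7 lower, beside 39.3% and 39.2% of all genes. In RA 7 were called higher and the other 3 were not called, beside 35.0% and 33.7%. The response in RA minus the response in WT, termed the interaction, was called higher in 10 of 10, beside 24.5% of all genes called higher and 26.1% lower. In this fit it was largest among the 10 for Tap1 (2.39, SE 0.14), Tap2 (1.65, SE 0.185) and Psmb8 (1.55, SE 0.183) and smallest for Psmb10 (0.38, SE 0.110) on the log2(value + 1) scale. By edgeR, with no pseudocount of 1, the order was Tap1 (2.77), Psmb8 (2.74), Psmb9 (2.03), Tap2 (2.03) and Tapbp (1.37), so the place of Psmb9 depends on the pseudocount. The call of Psmb10 was lost without replicate 1 of normal WT (0.27), without replicate 1 of starved RA (0.32), with quantile normalization (0.26) and without the filter. The comparisons share samples, and the members were picked with them known, so these counts describe the 10 genes and test nothing.

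**Figure D3:**
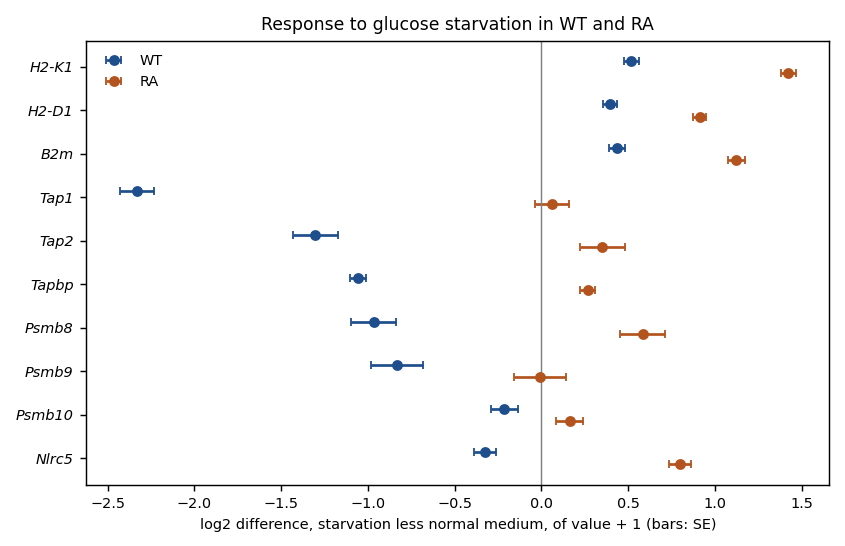
Difference between starvation and normal medium on the log2(value + 1) scale (x axis) for each member (y axis), with SE bars, in WT (blue) and RA (brown). In WT, H2-K1, H2-D1 and B2m lie at 0.40 to 0.52 and Tap1 at -2.33, and each RA point lies to the right of its WT point.

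Over the 8 samples the members formed tight subsets. H2-K1, H2-D1 and B2m correlated with each other at Pearson r of 0.986 to 0.996 in log2(value + 1), and Tap1, Tap2 and Tapbp at 0.986 to 0.991. Across these subsets r was 0.458 to 0.653. The immunoproteasome subunits correlated with each other at 0.965 to 0.966 and with Tap1, Tap2 and Tapbp at 0.891 to 0.982, and Nlrc5 with the other members at 0.835 to 0.962. The 8 points come from 4 groups and share libraries and depth, so these r values are a description.

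**Figure D4:**
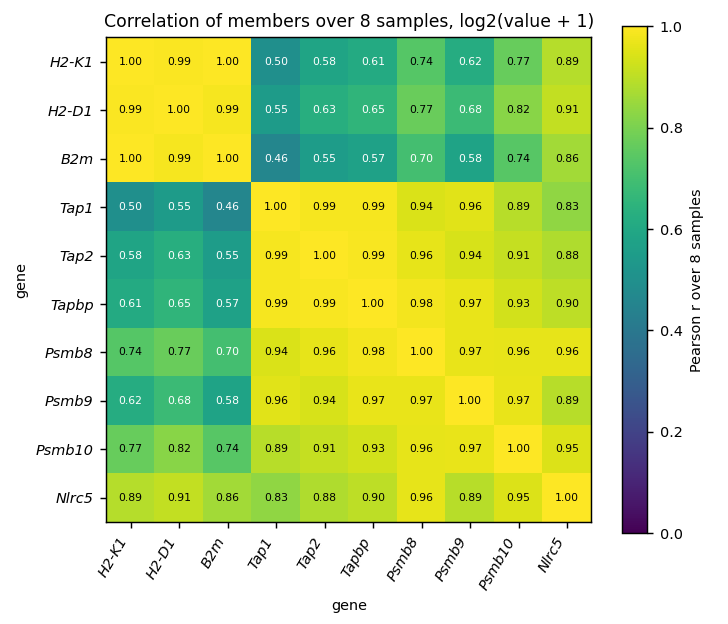
Pearson r of log2(value + 1) over the 8 samples for each pair of members (both axes list the genes; colour from 0 to 1). The block of H2-K1, H2-D1 and B2m is joined to that of Tap1, Tap2 and Tapbp by r of 0.458 to 0.653 only.

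The genes with the pattern most like the mean of the 10 standardised members, among 10491 other genes with a mean of at least 10, were H2-T22 (r = 0.999), Msln (0.997), Bst2 (0.995), A930015D03Rik (0.993) and Shisa5 (0.992). H2-T22, a nonclassical class I heavy chain, measured 67.1 and 62.4 scaled CPM (normal WT), 42.5 and 44.9 (starved WT), 116 and 121 (normal RA) and 203 and 198 (starved RA). A930015D03Rik shares 90.3% of its exon bases with H2-T22 on the opposite strand, so the 2 cannot be told apart where strand is not counted. Bst2 (tetherin), an interferon-induced protein that holds virus particles at the cell membrane, measured 160 and 159 (starved WT) and 984 and 970 (starved RA). At this n the measure is coarse, as 281 genes reached r of at least 0.9.

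Most other class I heavy chains and class I-like genes were also higher in starved RA. The counts of this and the following lists stand beside 30.8% of all genes called higher and 32.1% lower in starved RA against starved WT, and 39.3% higher and 39.2% lower in starved against normal WT. Of 29 listed genes 17 passed the filter, of which H2-Q2 and H2-Q5 passed only through starved RA and had to differ there. Of the other 15, 13 were called higher in starved RA than in starved WT by limma, with a median difference of 1.13 against -0.01 over all genes tested, and with H2-Q2 and H2-Q5 the count was 15 of 17. The 2 not called were Cd1d1 and H2-M5 (-0.35, SE 0.169, adjusted p = 0.0827 by limma), and 1 gene of the 17 was called lower in a fit on only the groups compared and after quantile normalization. H2-T23, which encodes Qa-1, a ligand of natural killer cell receptors, measured 21.1 and 18.8 (normal WT), 14.0 and 13.1 (starved WT), 39.2 and 40.0 (normal RA) and 105 and 106 (starved RA). Its difference in starved cells was 2.88 (SE 0.062, adjusted p = 1.58e-16 by limma) and its interaction 1.92 (SE 0.087, adjusted p = 1.65e-11 by limma). H2-Q4 differed by 2.56 in starved cells (SE 0.072, adjusted p = 7.24e-15 by limma). In starved WT 6 of the 17 were called higher and 7 lower than in normal WT, close to the shares over all genes. H2-M5, among the 6, passed the filter only through starved samples, so nothing is read from its call there. H2-T23 fell by 0.53 (SE 0.062, adjusted p = 5.97e-07 by limma), as Tap1 did and H2-K1 did not. H2-Bl rose by 0.85 (SE 0.126, adjusted p = 9.14e-06 by limma), from 0.609 and 0.524 in normal WT to 1.76 and 1.90 in starved WT. H2-Bl, H2-T10 and H2-Q5 (polymorphic) and H2-K2 (transcribed) are annotated as pseudogenes in GENCODE M21 and stayed in the counts of this list. Cd1d1, a class I-like lipid-presenting molecule, measured 1.59 and 2.23 (starved WT) and 2.08 and 2.19 in starved RA (difference 0.11, SE 0.137, adjusted p = 0.486 by limma). H2-M3, which has the promoter spacing of the classical genes and was named for it after its values were seen, measured 2.44 and 3.14 (normal WT), 2.47 and 2.96 (starved WT), 5.13 and 5.50 (normal RA) and 7.29 and 6.15 (starved RA). Its normal and starved WT samples overlapped, unlike those of H2-K1, H2-D1 and B2m. Heavy chain genes of the H2-Q and H2-T families are near copies, so reads may be split between them.

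Psme1, Psme2 and Erap1, which act beside the members in peptide supply, were higher in starved RA. Psme1 and Psme2, the interferon-inducible PA28 cap of the proteasome, differed between starved RA and starved WT by 1.12 (SE 0.057, adjusted p = 2.83e-11 by limma) and 1.16 (SE 0.059, adjusted p = 3e-11 by limma). In starved WT they fell by 0.43 and 0.51. Psme3, which forms a nuclear cap, was 0.23 lower in starved RA (SE 0.037, adjusted p = 4.9e-05 by limma). Of 10 activators, inhibitors and assembly factors 4 were called higher in starved RA and 3 lower, with a median of 0.07, and 3 were higher and 5 lower in starved than in normal WT, so the list as a whole lay near the shares over all genes. Erap1, the ER peptidase that trims peptides to class I length, measured 15.2 and 15.1 (starved WT) and 41.2 and 40.6 in starved RA (difference 1.38, SE 0.076, adjusted p = 8.3e-11 by limma). Its exons share 11.5% of their bases with Cast on the opposite strand. Among all 10 trimming peptidases tested 3 were called higher in starved RA and 6 lower, with a median of -0.14. The lowest was the cytosolic peptidase Thop1 (-0.53, SE 0.049, adjusted p = 7.03e-08 by limma). In starved against normal WT 5 were higher and 4 lower.

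The constitutive 20S core, of which Psmb5, Psmb6 and Psmb7 are part, was lower on starvation. Of 14 subunits 13 fell in starved WT, with a median of -0.46 against 0.0049 over all genes tested. Psma7 fell by 0.70 (SE 0.043, adjusted p = 1.2e-10 by limma) and the remaining subunit, Psmb1, measured 161 and 163 after starvation and 159 and 169 before (-0.02, SE 0.042, adjusted p = 0.674 by limma). In starved RA against starved WT 6 were higher and 1 lower, with a range from -0.14 for Psmb1 to 0.27 for Psmb7.

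Calr, Canx and Pdia3 are general ER folding factors that also serve class I heavy chains. They were higher in starved than in normal WT and lower in starved RA than in starved WT. Calr (calreticulin) measured 1570 and 1608 scaled CPM (normal WT), 6246 and 6604 (starved WT), 1506 and 1628 (normal RA) and 3021 and 2992 (starved RA). Its difference between starved RA and starved WT was -1.09 (SE 0.051, adjusted p = 8.8e-12 by limma), that of Pdia3 (ERp57) -0.91 (SE 0.044, adjusted p = 1.43e-11 by limma) and that of Canx (calnexin) -0.72 (SE 0.036, adjusted p = 2.54e-11 by limma). Tapbpl (TAPBPR), a peptide editor related to tapasin, was 0.95 higher in starved RA (SE 0.115, adjusted p = 1.74e-06 by limma). Of the 12 loading and folding genes 10 were called lower in starved RA and 2 higher, with a median of -0.41. In starved against normal WT 8 of 12 were higher and 2 lower, with a median of 0.54.

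**Figure D5:**
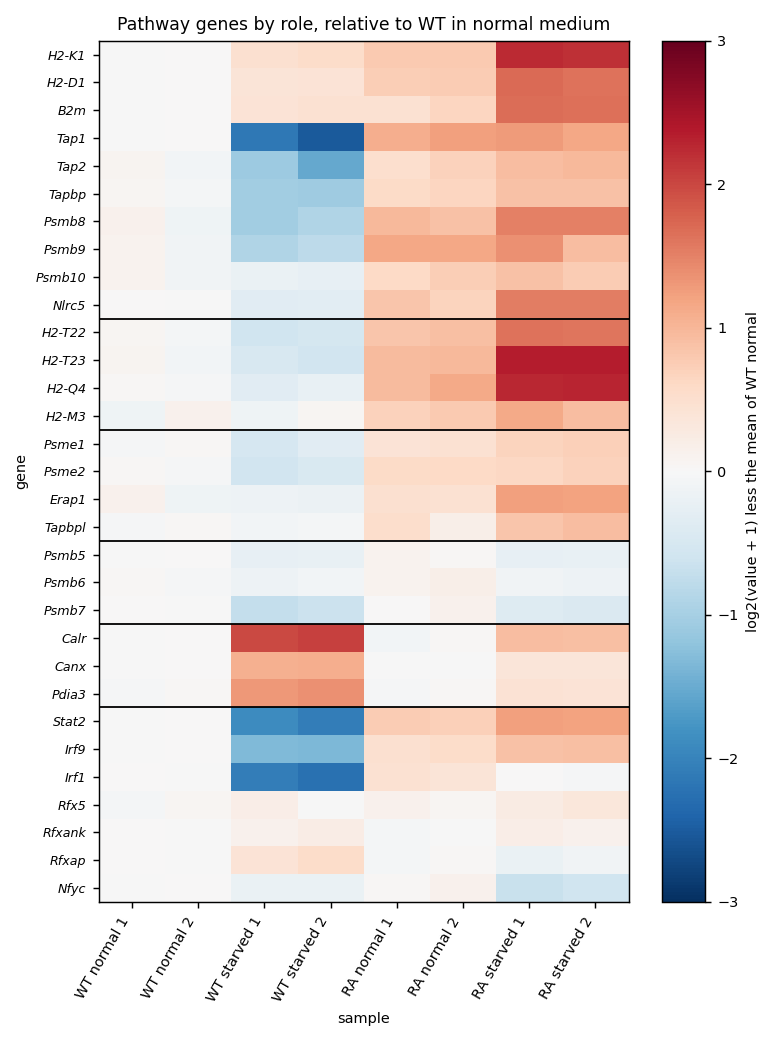
Difference of log2(value + 1) from the mean of WT in normal medium (colour, limited to 3 in each direction) for 31 genes (rows, grouped by role and separated by lines) in the 8 samples (columns). Starved WT is blue for Tap1, Stat2 and Irf1 and red for Calr, Canx and Pdia3, and starved RA is red for all 10 members.

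Several regulators of class I transcription differed between the genotypes under starvation. Stat2, which carries interferon signals to the nucleus, measured 128 and 129 scaled CPM (normal WT), 33.7 and 29.9 (starved WT), 218 and 212 (normal RA) and 303 and 300 (starved RA). It was lowest in starved WT and highest in starved RA, and no groups overlapped. Its difference in starved cells was 3.21 (SE 0.048, adjusted p = 1.06e-18 by limma) and its interaction 2.47 (SE 0.068, adjusted p = 2.08e-14 by limma). Irf1, a factor that binds interferon response elements, measured 29.8 and 29.0 (normal WT), 6.20 and 5.44 (starved WT), 40.9 and 38.8 (normal RA) and 29.6 and 28.6 (starved RA). RFX and NF-Y factors bind class I promoters together with Nlrc5. Rfx5, named for this role after its values were seen, measured 23.7 and 20.4 (starved WT) and 24.6 and 26.2 (starved RA). Rfxap was 0.63 lower in starved RA (SE 0.080, adjusted p = 2.9e-06 by limma) and Nfyc 0.43 lower (SE 0.050, adjusted p = 1.07e-06 by limma). Of 15 regulators tested 8 were called higher in starved RA and 4 lower, with a median of 0.16, and 5 were higher and 9 lower in starved than in normal WT.

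Class II presentation, which serves CD4+ T cells, was nearly absent. Of 11 listed genes 4 passed the filter. H2-Aa was at 0 in every sample and H2-Ab1 did not exceed 0.0731 scaled CPM. Cd74, the class II invariant chain, measured 4.97 and 5.92 (starved WT) and 5.25 and 6.57 (starved RA), against at most 0.667 in normal medium. Cd74 thus passed the filter only through starved samples and had to differ from normal medium there. Its rise of 2.31 in starved WT (SE 0.136) is given as a size only. Starved RA and starved WT differed by 0.10 (SE 0.136, adjusted p = 0.548 by limma). H2-DMb1 passed only through starved RA, so its call there is not counted. Of the other 3 genes, H2-DMa, a chain of the class II peptide editor, was called lower in starved RA (-0.41, SE 0.136, adjusted p = 0.014 by limma). In starved WT 1 of 3 was higher and 1 lower. The higher gene was Cd74, so nothing is read from that call. The class II peptidase Ctss was the gene that fell (1.17 on the log2 scale, SE 0.146, adjusted p = 1.31e-06 by limma).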

How the data were processed

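RNA-seq was performed on polyA RNA of 8 MEF samples. Per the labels and the methods of the study, the authors prepared TruSeq libraries, sequenced paired ends and mapped reads with TopHat2 (version 2.0.9) to mm9, and the processing notes also name bedtools and edgeR; the counter, annotation and strand handling are not given in the sources used here. The authors deposited 1 table of 49492 gene symbols whose values are a signal: read counts relative to a library size that they scaled per sample (scaled CPM), with columns summing to 965845 to 1029723. Column names with minus were taken for normal medium and those with plus for glucose starvation, as the study marks its conditions. In every sample 100% of nonzero values were whole reads (tolerance 0.1 read), and 78.2% to 80.5% of counts from 1 to 9 were even, as when both mates are counted. Read totals cover counting error only.

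The 16232 genes reaching 1 scaled CPM in 2 or more samples were analysed with limma (version 3.58.1, R version 4.3.3) on log2(value + 1), which understates changes of low genes, with means of 4 groups over 8 samples, eBayes with trend, 2-sided p-values and BH adjustment per contrast. Genes were called at an adjusted p under 0.05 in 5 contrasts. The planned unit was CPM, and the same test was used for the scaled CPM found. Members and gene lists were chosen with earlier results of these data known. Named genes were the members, Psmb5, Psmb6, Psmb7, Psme1, Psme2, Calr, Canx, Pdia3, Erap1, Tapbpl, Ruvbl1, up to 2 at each end of every list per contrast, and the 5 genes nearest in pattern. Lists are described by counts and medians with no test of the list. Of the regulators, 1 gene that the rule names is not reported here. Exon lengths and overlaps came from GENCODE M21 (GRCm38), which approximates the unstated annotation, and promoters from RefSeq. Alternatives changed 1 choice at a time: pseudocounts, filters, scaling, samples in the fit, the replicate block, eBayes without trend, thresholds, edgeR (version 4.0.16), DESeq2 (version 1.42.0) and each sample left out. Of the cell type markers, 2 of 5 endothelial and 2 of 5 epithelial genes passed the filter, and the epithelial sum was 1.43 to 3.21 over all samples.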

Additional observations from a re-analysis of the deposited data

Results flagged for a closer look

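All 10 members stand here because their interaction term, the response to starvation in RA less that in WT, passed the threshold of the fit. The members were picked with these values known, so this is no finding and the term is given as a size only. The response in RA less that in WT, on the log2(value + 1) scale, was 2.39 for Tap1, 1.65 for Tap2, 1.55 for Psmb8, 1.32 for Tapbp, 1.12 for Nlrc5, 0.91 for H2-K1, 0.83 for Psmb9, 0.69 for B2m, 0.52 for H2-D1 and 0.38 for Psmb10. The pseudocount compresses the low genes: edgeR gave 2.74 for Psmb8 and 2.03 for Psmb9, which then stood above Tapbp (1.37). For 7 members, namely Tap1, Tap2, Tapbp, Psmb8, Psmb9, Psmb10 and Nlrc5, the mean scaled CPM was lower in starved than in normal WT and higher in starved than in normal RA, although in RA the difference of Tap1, of Psmb9 and of Psmb10 was not called. For H2-K1, H2-D1 and B2m starvation raised the value in both genotypes and the difference is one of size. For Psmb9 in RA the means were 4.35 in normal medium and 4.38 under starvation, and the log2(value + 1) difference was -0.01. Groups of 2 samples are too small for a search for single samples that stand apart.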

How the results depend on the processing

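Of 50 differences (10 members, 5 contrasts), 6 changed their call under an alternative that kept the threshold, in Psmb10, Psmb9 and Tap2. The number of members called kept within 1.5 times of the count given above in each contrast except at stricter thresholds. Requiring also a 2-fold change left 2 of 10 members higher in RA in normal medium, 0 of 3 higher and 3 of 7 lower in starved WT, 2 of 7 higher in starved RA and 5 of 10 in the interaction, and all 10 in starved RA against WT. At an adjusted p under 1e-05 these counts were 6, 3, 4, 4, 8 and 10. Psmb8 and Psmb9 depended on the pseudocount: their difference between starved RA and WT was 2.48 and 1.98 with 1 and 3.97 and 3.61 with 0.01. The call of the Psmb9 interaction was lost without the filter.

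Same-numbered samples were compared because the labels number replicates 1 and 2 in each group, and nothing ties equal numbers to a culture or day. The correlation of their deviations ran from -0.00764 to 0.157 over 6 pairs of groups, and from -0.0272 to 0.303 over genes with a mean above 10. With a replicate block the members called numbered 10 in normal medium, 10 under starvation, 3 higher and 7 lower in starved WT, 7 in starved RA and 10 in the interaction, none of them changed, and over all genes 2059, 10494, 12922, 11406 and 8578 were called in the 5 contrasts as ordered in the next paragraph.

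Over all genes, calls numbered 1563, 10211, 12756, 11157 and 8207, for the genotypes compared in normal medium, the genotypes compared under starvation, starvation in WT, starvation in RA and the interaction. With a 2-fold change they numbered 82, 1088, 3179, 1465 and 990, and at 1e-05 they numbered 141, 3596, 7399, 4961 and 1764. By edgeR on the recovered reads they numbered 1555, 10194, 12705, 11114 and 8096. In normal medium 650 were called without the filter, 590 without the trend, and 559 to 1706 with a sample left out, the lowest without replicate 1 of normal WT.

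List counts are given as starved RA against WT, higher and lower, then starved against normal WT, higher and lower. With a 2-fold change they were 0, 1, 5 and 0 for loading, 1, 0, 0 and 0 for trimming, 2, 0, 0 and 0 for activators, 0, 0, 0 and 0 for the 20S core, 0 and 0 in WT for other class I, 4, 0, 0 and 5 for regulators, and 0 and 0 in RA for class II. At 1e-05 loading had 1 higher in RA and 1 lower in WT, trimming 2 lower in RA and 2 higher in WT, activators 0 lower in RA and 0 and 3 in WT, the 20S core 0 and 0 in RA, other class I 1 and 2 in WT, regulators 2 lower in RA and 1 higher in WT, and class II 0 and 0 in RA. A filter at 10 left 4 other class I genes higher in RA and 1 and 3 in WT. Without the low filter loading had 1 higher in RA and class II 2 higher in WT. Without the trend loading had 1 higher, activators 1 lower and the 20S core 0 lower in RA. Activators had 1 lower in RA by edgeR and by total-read scaling, and regulators 3 higher in WT by total-read scaling. Other class I genes had 1 lower in RA with only the groups compared and with quantile normalization. With a sample left out the lower counts in RA ran from 1 to 3 for activators, 0 to 1 for the 20S core, other class I and class II, loading ran from 1 to 2 higher in RA and 1 to 2 lower in WT. Without genes that passed the filter in 1 group only, an alternative chosen after seeing the data, class II had 0 higher in RA. Fn1, a fibroblast marker, turned to -0.13 in starved WT with quantile normalization. Causes were not tested.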
